A study of Homo sapiens with 4 samples.

Results

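Hyaluronan is a long, unbranched sugar polymer of the extracellular matrix that is spun out through the plasma membrane by hyaluronan synthases. The synthases join precursors made in the cytosol, surface receptors and matrix proteoglycans bind the finished chains, and secreted proteins crosslink them into cable-like or pericellular coats. In the breast, hyaluronan is mostly a product of stromal cells, and epithelial cells bind it through CD44.

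Expression of 7 genes of hyaluronan synthesis and binding was examined in MCF10A, an immortalised, non-tumorigenic line of human breast epithelium. The 7 are the synthases HAS2 and HAS3, the precursor enzyme UGDH, the receptor CD44, the proteoglycan VCAN (versican) and the secreted proteins TNFAIP6 (TSG-6) and PTX3 (pentraxin 3). They stand among 22395 genes that have a probe set annotated to exactly 1 symbol, and where a gene had several such probe sets the one with the highest mean over the 4 arrays was taken. HAS2 and PTX3 were chosen by their measured values, because both read higher where the label includes Her2, so those contrasts are given for them as a description only.

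The study set out to find target genes of the oncogenes Her2 (ERBB2, a receptor tyrosine kinase) and mutant PIK3CA (PIK3CA encodes a catalytic subunit of PI 3-kinase, which signals below such receptors). All 4 groups were MCF10A cells with a stable transfection, grown untreated in SFIHE medium: LacZ, a bacterial enzyme gene that serves as the control, Her2 alone, PIK3CA-H1047R alone, or Her2 together with PIK3CA-H1047R. The last group is called "both" below. The sources used here do not give the promoters of the introduced genes or whether a line was 1 clone or a pool. Each group was measured on 1 array, so no value has an error, no test compares groups, and the number of arrays limits the precision. In a bulk extract, fewer expressing cells and less RNA per cell cannot be told apart.

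Values are deposited log2 expression values, so a difference of 1 is 2-fold. Over all 53617 probe sets the array medians lay between 1.13 and 1.17 and the upper quartiles between 2.48 and 2.62. A value under its array's upper quartile is called low here. Differences are set against 4312 counted genes, those with a log2 value of at least 5 on 1 or more arrays. The probe set for ERBB2 (shared in the annotation with MIR4728) read 5.96 on the LacZ array, 4.29 on the Her2 array, 8.48 on the mutant PIK3CA array and 7.39 on the array labelled with both. It is thus lowest on the array labelled Her2 and goes against that label, and every direction here is stated for "the array labelled" with a group, shortened to its name. Of 5 measured markers of mammary epithelium, 4, 4, 4 and 5 were above the upper quartile in the order LacZ, Her2, mutant PIK3CA and both. KRT5 lay between 7.08 and 7.52 throughout, whereas CDH1 read 9.34, 8.94, 9.13 and 5.07. LAMB3 read 8.61, 8.19, 10.15 and 6.94, EPCAM 7.94, 7.01, 7.78 and 5.71, and KRT14 1.47, 1.80, 2.24 and 3.43. On the array labelled with both, 3 of the 4 counted markers were at least 2-fold lower than on the LacZ array. These were LAMB3, CDH1 and EPCAM, and 11.1% of counted genes were lower by that much. In the same comparison KRT5 differed by -0.13 and KRT14, which was not counted, by 1.96.

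Proximal promoter sequences from RefSeq (GRCh38.p14) were used for 6 of the 7 members, all but HAS2. The windows of PTX3 and TNFAIP6 are shown because both genes encode secreted, cytokine-inducible partners of hyaluronan, while PTX3 is high on 2 arrays and TNFAIP6 is low on all 4. Each window is the 250 bases before the annotated start, on the plus strand, at chr3:157436600-157436849 for PTX3 and chr2:151357342-151357591 for TNFAIP6. Capitals mark matches to the NF-kB consensus in the first and to the AP-1 site TGANTCA in the second, searched on both strands.
PTX3: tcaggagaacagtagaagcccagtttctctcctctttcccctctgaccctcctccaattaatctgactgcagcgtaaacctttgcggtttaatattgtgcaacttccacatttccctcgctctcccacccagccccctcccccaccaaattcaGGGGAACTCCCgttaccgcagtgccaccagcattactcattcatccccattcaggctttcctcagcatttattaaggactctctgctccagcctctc
TNFAIP6: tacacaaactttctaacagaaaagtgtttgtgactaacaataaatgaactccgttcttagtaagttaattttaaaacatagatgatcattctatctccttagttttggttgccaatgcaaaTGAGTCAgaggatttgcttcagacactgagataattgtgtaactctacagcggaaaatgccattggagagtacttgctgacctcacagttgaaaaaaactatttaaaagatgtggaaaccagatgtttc

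In PTX3 there were 2 overlapping matches to the NF-kB consensus, starting 97 and 96 bases before the start, and 0 matches to the AP-1 site. In TNFAIP6 there was 1 AP-1 match, 129 bases before the start, and 0 to the NF-kB consensus. Of 35116 such windows, 5.21% hold the NF-kB consensus and 6.57% the AP-1 site. A further search for TTCNNNGAA, a letter pattern of STAT sites held by 6.57% of windows, found 0 matches in the 6 members, as did one for TATAAA, held by 10.7%. The windows of HAS3, UGDH, CD44 and VCAN had 0 matches to any of the 4 patterns. These matches describe letters only.

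Among the synthases, HAS2, which makes very long chains, was low without the Her2 label and clearly higher with it. HAS2 read 0.98 on the LacZ array, 4.01 on the Her2 array, 1.35 on the mutant PIK3CA array and 5.86 on the array labelled with both. The LacZ and mutant PIK3CA values are low, with 41.2% and 56.3% of all probe sets below them, against 84.6% and 93.4% for the Her2 value and the value with both. The difference was 3.03 (8.17-fold) between Her2 and LacZ and 4.51 (22.9-fold) between both and mutant PIK3CA. The rise in these pairs is what chose HAS2, so it is a description only. HAS2 lies near background without the label, so the sizes of these folds are uncertain. After cyclic loess normalization the differences were 2.86 between Her2 and LacZ and 4.72 between both and mutant PIK3CA. HAS2 did not follow the ERBB2 probe set, which was highest on the mutant PIK3CA array where HAS2 was low.

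The array labelled with both also exceeded the Her2 array in HAS2, at levels above the upper quartile on each, and differed by 1.85 (3.62-fold). That size was reached in either direction by 5.52% of counted genes. HAS2 was chosen on values of the same arrays and met the filter only on the array labelled with both. The share is thus a description only. The antisense RNA HAS2-AS1, which overlaps HAS2 on the opposite strand, was low on all 4 arrays (1.03, 1.49, 1.24 and 1.86). It had the same order of arrays as HAS2, with differences of 0.47 in the first Her2 pair and 0.62 in the second, but at a level where a difference has little meaning.

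HAS3, a synthase that many epithelia use, was low on every array. HAS3 read 1.98, 1.70, 1.53 and 1.96 in the order LacZ, Her2, mutant PIK3CA and both, a range of 0.45. No order of the arrays can be read from values this low, and low values do not show that the transcript is missing. HAS1, the other synthase, was not analysed here. Of HAS2 and HAS3, HAS2 alone had values above the upper quartile of the array, on 2 of the 4.

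UGDH, which oxidises UDP-glucose to the UDP-glucuronic acid that hyaluronan synthases consume, was well measured on every array. UGDH read 5.65 on the LacZ array, 6.43 on the Her2 array, 5.89 on the mutant PIK3CA array and 6.89 on the array labelled with both. The order of the arrays is the same as for HAS2, with a span of 1.24 (2.35-fold) instead of 4.88. The Her2 label went with a difference of 0.78 in the first pair and 1.00 (1.998-fold, just under 2-fold) in the second. UGDH passed 2-fold in the second pair after quantile normalization, at 1.01. A first-pair difference at least as high as that of UGDH was found in 266 of 4312 counted genes, and in the second pair in 436.

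CD44, the main cell-surface receptor of hyaluronan, was high and nearly level. CD44 read 7.79, 7.48, 7.74 and 7.59 in the order LacZ, Her2, mutant PIK3CA and both, a range of 0.31. Between 97.6% and 98.0% of all probe sets lay below it. Its largest difference, -0.31 between Her2 and LacZ, was matched or exceeded in size by 50.2% of counted genes. A second probe set of CD44 was read at 2.06, 2.08, 2.30 and 2.72, and averaging both turned the small differences of CD44 in mutant PIK3CA against LacZ, both against LacZ and both against mutant PIK3CA from negative to positive. Splice forms of CD44, many of which differ in the variable exons, cannot be told apart by 1 value per gene.

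VCAN, a large chondroitin sulphate proteoglycan whose globular end binds hyaluronan, was measured on every array and had another order. VCAN read 5.76 on the LacZ array, 6.73 on the Her2 array, 6.28 on the mutant PIK3CA array and 6.04 on the array labelled with both. It was thus highest on the Her2 array, 0.97 (1.96-fold) above LacZ, but on the array labelled with both it lay 0.24 below mutant PIK3CA and 0.69 below Her2. Both against LacZ differed by 0.28. VCAN was the counted member whose Her2 pairs pointed opposite ways at its own sizes of 0.97 and -0.24. With 1 array each, whether these differ was not tested.

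TNFAIP6, which moves heavy chains of inter-alpha-inhibitor onto hyaluronan and so crosslinks it, was low on all 4 arrays. TNFAIP6 read 1.91, 2.06, 1.40 and 2.55 in the order LacZ, Her2, mutant PIK3CA and both. Its value on the array labelled with both is the highest of the 4 and has 74.5% of probe sets below it. The difference of 1.15 between both and mutant PIK3CA passes 2-fold, but it joins values that are both low. The corresponding Her2 pair gave 0.15.

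PTX3, a long pentraxin that binds TNFAIP6 and inter-alpha-inhibitor and holds hyaluronan matrix together, was, like HAS2, higher on the arrays whose label includes Her2. PTX3 read 2.15 on the LacZ array, 6.07 on the Her2 array, 2.59 on the mutant PIK3CA array and 5.28 on the array labelled with both. It is low on the LacZ array and only just above the upper quartile on the mutant PIK3CA array, while the other arrays are far higher. The differences were 3.92 (15.1-fold) between Her2 and LacZ and 2.69 (6.47-fold) between both and mutant PIK3CA. The LacZ value is low, so the size of the first is uncertain. After cyclic loess normalization the differences were 3.57 and 2.76. In contrast to HAS2, PTX3 was higher on the Her2 array than on the array labelled with both, by 0.78 (1.72-fold).

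**Figure D1:**
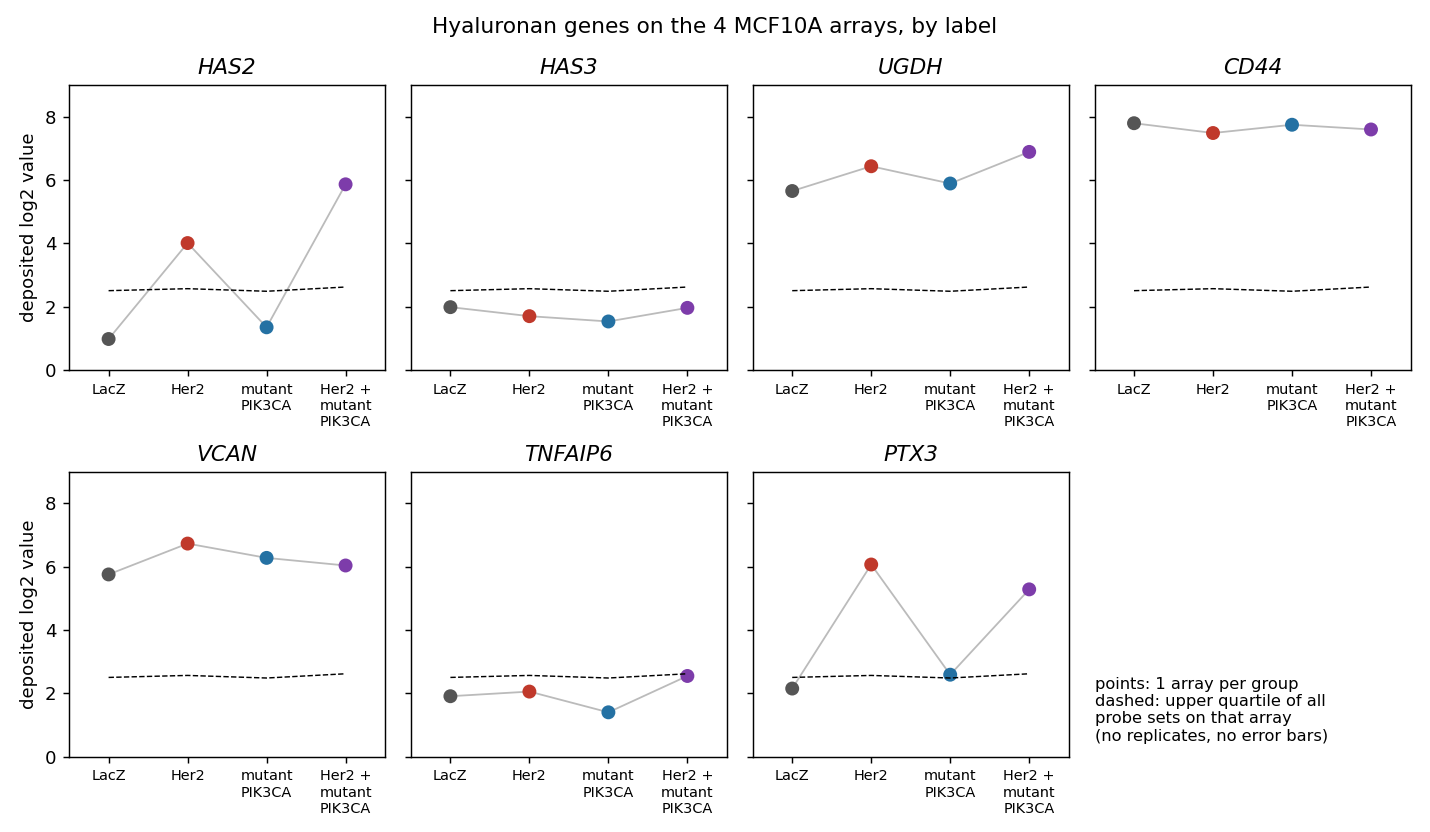
Deposited log2 values of the 7 genes on the 4 arrays, 1 point per array, with a dashed line at the upper quartile of all probe sets of each array. HAS2 (0.98, 4.01, 1.35 and 5.86) and PTX3 (2.15, 6.07, 2.59 and 5.28) are high on the Her2 array and on the array labelled with both, CD44 stays between 7.48 and 7.79, and HAS3 and TNFAIP6 lie under the line on every array.

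Over the members, 2 of 7 (HAS2 and PTX3) were at least 2-fold higher on the Her2 array than on the LacZ array, where 2.95% of counted genes were, and 0 were at least 2-fold lower, against 2.57%. Because those members were selected on this contrast, nothing is read from that count. Of the 5 members that the rule did not choose on values, 0 passed 2-fold. Their median difference was 0.15, against 0.02 over the counted genes, and is the value of TNFAIP6, which was low on all 4 arrays. VCAN at 0.97 and UGDH at 0.78 were the highest and CD44 at -0.31 the lowest. A filter of 5 on at least 1 array was met by 5 of the 7 members. HAS2 met it only on the array labelled with both, and PTX3 only on the Her2 array and the array labelled with both, so each had to differ between arrays to be counted. UGDH, CD44 and VCAN met it on all 4, and HAS3 and TNFAIP6 on 0. The counts over 7 members thus include genes under the filter, unlike the shares of counted genes set beside them.

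In the second Her2 pair, both against mutant PIK3CA, 3 of 7 members (HAS2, PTX3 and TNFAIP6) were at least 2-fold higher, where 10.0% of counted genes were, and 0 were lower, where 8.88% were. TNFAIP6 is under the filter, and over the 20913 genes without the filter the shares were 5.28% higher and 3.48% lower. The 5 members not chosen on values had a median of 0.43, against -0.01 over the counted genes. HAS2 and PTX3 were at least 2-fold higher in both pairs, a pattern of 1.21% of counted genes, and this too is what chose them. UGDH was higher in both pairs without passing 2-fold in either.

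**Figure D2:**
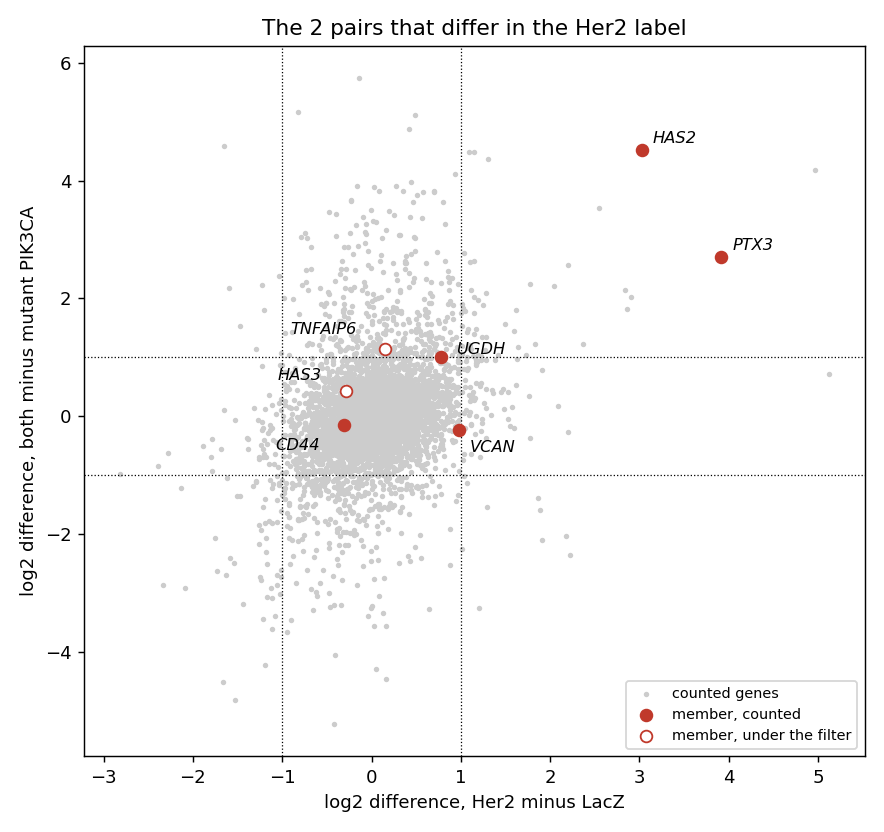
Log2 difference between Her2 and LacZ (horizontal) against that between both and mutant PIK3CA (vertical) for the 4312 counted genes (grey) and the 7 members (red, open where under the filter), with dotted lines at 2-fold. HAS2 (3.03 and 4.51) and PTX3 (3.92 and 2.69) lie far to the upper right, UGDH (0.78 and 1.00) lies near the 2-fold lines, and VCAN (0.97 and -0.24) lies just short of the right-hand line and below 0 on the vertical axis.

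On the mutant PIK3CA array no member differed 2-fold from the LacZ array, while in the second pair with that label HAS2 did. Against LacZ, 0 of 7 members were at least 2-fold higher, where 7.07% of counted genes were, and 0 were lower, where 4.08% were. The differences ran from -0.51 for TNFAIP6 to 0.52 for VCAN, with a median of 0.24 against 0.07 over the counted genes. HAS2 differed by 0.37 and PTX3 by 0.44, and both values turned sign after cyclic loess normalization, to -0.41 and -0.14. Between both and Her2, HAS2 (1.85) was the 1 member at least 2-fold higher, where 9.09% of counted genes were. HAS2 met the filter only on the array labelled with both. At least 2-fold lower were 0 members, where 6.10% of counted genes were. PTX3 at -0.78 and VCAN at -0.69 were the lowest.

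The array labelled with both and the LacZ array differed at least 2-fold upwards in 3 of 7 members, where 13.8% of counted genes did, and downwards in 0, where 11.1% did. HAS2 differed by 4.88 (29.5-fold), PTX3 by 3.13 (8.77-fold) and UGDH by 1.24 (2.35-fold). The LacZ values of HAS2 and PTX3 are low, so the sizes of their differences are uncertain. After cyclic loess normalization they were 4.31 for HAS2 and 2.63 for PTX3. The other members lay between -0.20 (CD44) and 0.64 (TNFAIP6). The single-label arrays, set against each other as mutant PIK3CA minus Her2, had HAS2 (-2.66) and PTX3 (-3.48) at least 2-fold lower, where 3.69% of counted genes were, and 0 members higher, where 6.15% were. These comparisons share arrays with those above and add no independent view.

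Departure from additivity is the value on the array labelled with both minus the sum of the single-label differences on the LacZ value. It was at least 1 upwards in 2 of 7 members (HAS2 and TNFAIP6), where 9.49% of counted genes reached that. It was at least 1 downwards in 2 (PTX3 and VCAN), where 9.04% did. HAS2 and PTX3 were chosen on values of the same arrays, and TNFAIP6 is low on all 4, so nothing is read from these counts. Over the 20913 genes without the filter the shares were 5.81% upwards and 4.35% downwards. HAS2 read 5.86 against an additive value of 4.38, a departure of 1.48, which rests in part on low values. PTX3 read 5.28 against 6.51, a departure of -1.22, which shrank to -0.81 after cyclic loess normalization. VCAN read 6.04 against 7.25, a departure of -1.21, and all 4 of its values are well measured. TNFAIP6 at 1.00 rests on low values and came to 0.97 after quantile normalization and 1.61 after cyclic loess. HAS3, also low, went from 0.71 to 1.32 after cyclic loess. With that normalization 3 members were at least 1 upwards and 1 downwards. UGDH at 0.22 and CD44 at 0.16 lay close to the sum, at sizes that 74.4% and 80.4% of counted genes reached.

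**Figure D3:**
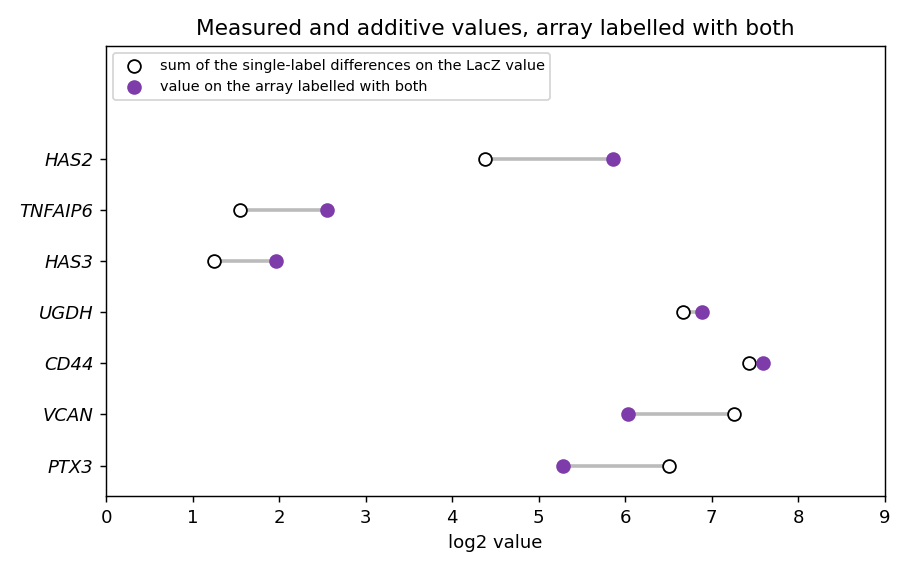
Log2 value on the array labelled with both (filled) and the value that the single-label differences add up to on the LacZ value (open) for the 7 members, 1 array per group. HAS2 lies above its sum (5.86 against 4.38), PTX3 (5.28 against 6.51) and VCAN (6.04 against 7.25) lie below theirs, and UGDH and CD44 lie close to them.

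The counted genes most like HAS2 and PTX3 were sought by the smallest Euclidean distance over the 4 arrays, each gene centred on its own mean. Nearest to HAS2 was FBN1 (fibrillin-1, a microfibril protein) at a distance of 0.97, followed by LINC01085 (1.35), IKBIP (1.55), CADM3, a cell adhesion molecule (1.61), and PROS1, the anticoagulant protein S (1.69). FBN1 read 2.09, 4.64, 2.12 and 5.65 and so shared the order of HAS2 with a first-pair difference of 2.55 and a second of 3.53. Nearest to PTX3 was DPT (dermatopontin, a matrix protein) at 1.28, followed by PROS1 (1.32), FBN1 (1.33), MME, the peptidase neprilysin (1.46), and FN1, fibronectin (1.52). DPT read 3.41, 8.38, 3.69 and 7.86 and like PTX3 was highest on the Her2 array. FBN1 and PROS1 are near both, while HAS2 and PTX3 lay 1.92 apart, with HAS2 the 11th gene from PTX3 and PTX3 the 13th from HAS2. These neighbours were picked on the same values that chose HAS2 and PTX3, so their rise with the Her2 label follows from the choice. FBN1, LINC01085, IKBIP and CADM3 met the filter on the array labelled with both alone. With 4 arrays, likeness of this kind describes the arrays only.

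**Figure D4:**
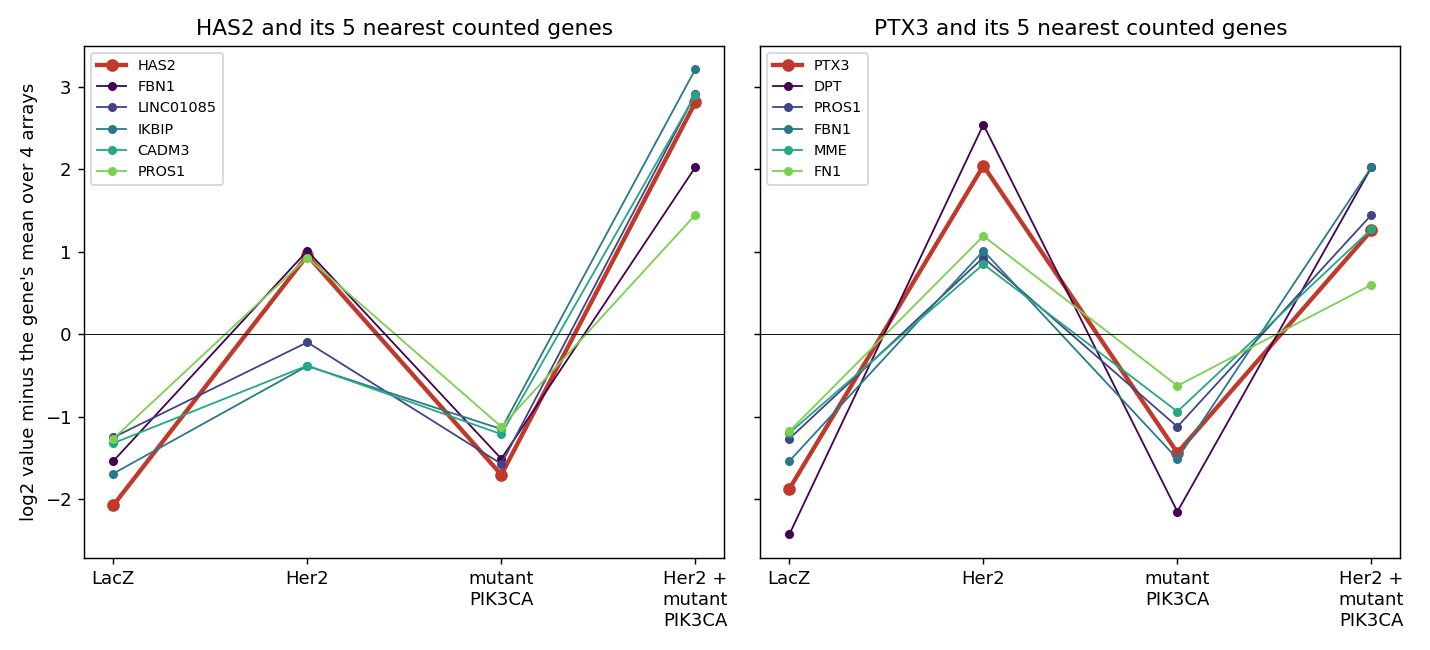
Log2 values of HAS2 (left) and PTX3 (right) and of the 5 counted genes nearest to each, every gene centred on its mean over the 4 arrays, with lines that join the arrays for reading only. FBN1 (distance 0.97) lies closest to HAS2, and DPT (1.28) closest to PTX3 with its highest value on the Her2 array.

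Genes of other cell types were read beside these values. Of 8 measured fibroblast markers, 2, 2, 2 and 4 were above the upper quartile in the order LacZ, Her2, mutant PIK3CA and both, and their mean values were 1.85, 2.62, 2.01 and 3.61. DPT, FAP, LUM and DCN made up those above it, where LUM (6.26) and DCN (5.06) were above it on the array labelled with both alone. The remaining measured markers, COL1A1 (1.79 to 2.24), COL1A2 (0.73 to 0.87), PDGFRB (0.78 to 1.01) and THY1 (1.42 to 2.06), were low on all 4. Of 5 leukocyte markers, 2, 2, 1 and 1 were above the upper quartile, with mean values of 2.04, 2.08, 2.15 and 2.13. CD68, a lysosomal protein, read 4.68, 4.94, 6.24 and 6.78 and CD14 2.95, 3.24, 2.14 and 1.98, while PTPRC (0.53 to 0.93), ITGAM and CD3E were low throughout. Of 3 measured endothelial markers, KDR read 3.83, 3.57, 2.03 and 4.81, and CDH5 (0.66 to 0.88) and VWF were low. The part of such cells in the values of HAS2 and PTX3 was not tested.

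The rest of the pathway was followed in 8 lists of 61 genes, 53 of which were measured and 12 counted. In the first Her2 pair 1 of the 12 was at least 2-fold higher (2.95% of all counted genes) and 0 lower (2.57%), with a median of 0.24 against 0.02. In the second pair 2 were higher (10.0%) and 0 lower (8.88%), with a median of 0.02 against -0.01. For mutant PIK3CA against LacZ 3 were higher (7.07%) and 1 lower (4.08%), with a median of 0.66 against 0.07. For both against Her2 5 were higher (9.09%) and 0 lower (6.10%), with a median of 0.16 against 0.01, and for both against LacZ 5 were higher (13.8%) and 0 lower (11.1%), with a median of 0.57 against 0.04. Those called in 1 or more of these were UAP1, CEMIP2, GUSB, HMMR and ADAMTS9. CEMIP2, GUSB and ADAMTS9 met the filter on the array labelled with both alone, so their upward calls on that array follow in part from the filter. HMMR met it only on the mutant PIK3CA array and on the array labelled with both, so the same holds for its upward calls there. The counts above are given as a description.

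Upstream of the synthases, the 3 measured enzymes of the UDP-N-acetylglucosamine branch were highest on the mutant PIK3CA array, where HAS2 was low. UAP1, which makes UDP-N-acetylglucosamine, read 6.43, 6.58, 8.34 and 7.80 in the order LacZ, Her2, mutant PIK3CA and both, so that mutant PIK3CA differed from LacZ by 1.92 and both from Her2 by 1.22. GFPT1, the entry enzyme of that branch, read 7.45, 8.04, 8.41 and 7.61, and GNPNAT1, an acetyltransferase of it, 6.09, 6.21, 6.84 and 6.26. Both were highest on the mutant PIK3CA array and under 2-fold in every one of the 5 comparisons shown. UGP2, which makes the UDP-glucose that UGDH uses, read 2.35, 2.43, 2.68 and 3.64 and was below the filter.

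Among enzymes that degrade hyaluronan, CEMIP2, a cell-surface protein tied to hyaluronan breakdown, read 2.54 on the LacZ array, 4.17 on Her2, 4.48 on mutant PIK3CA and 5.45 on both. It was lowest on the LacZ array, with differences of 1.63 for Her2 and 1.94 for mutant PIK3CA against LacZ. GUSB, a lysosomal glucuronidase, read 4.18, 4.43, 4.76 and 5.46. HYAL2 (1.43 to 1.84), HYAL4, SPAM1 and CEMIP were low on all arrays, and HEXA lay between 4.43 and 4.89.

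Of the other receptors, HMMR, which also acts at the mitotic spindle, read 2.09, 2.69, 5.42 and 6.81 in the order LacZ, Her2, mutant PIK3CA and both. Its LacZ value is low, so the sizes of its differences from LacZ are uncertain. The proliferation marker MKI67 read 4.60, 3.39, 6.76 and 8.56 on the same arrays, and its part in the HMMR values was not tested. TLR4, an innate immune receptor that hyaluronan fragments can engage, read 3.31, 4.54, 3.33 and 4.54. It differed by 1.23 in the first Her2 pair and 1.21 in the second, but its highest value stays below the filter. LYVE1, STAB1, STAB2, LAYN and TLR2 were low on all arrays.

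The partners of the secreted members were mostly low. The 6 measured inter-alpha-inhibitor chains, the donors and carrier that TNFAIP6 works with, were low on all 4 arrays, as were the 5 other pentraxins measured, so PTX3 was the pentraxin with values above the upper quartile. Of 11 other hyaluronan-binding and linking proteins, C1QBP (8.17 to 8.62) and HABP4 (2.97 to 3.53) were above it on every array, and ACAN, NCAN, BCAN and the link proteins HAPLN1 to HAPLN4 were low. The CD44 linkers EZR (8.54 to 9.22) and MSN (8.50 to 9.04) were, like CD44, high throughout. MMP14, a membrane protease that can shed CD44, read 1.84, 3.42, 2.59 and 3.25, with 1.58 in the first Her2 pair and 0.66 in the second. The LacZ value of MMP14 is low and its highest value stays below the filter. The sheddase ADAM10 was 0.73 to 0.74 above LacZ on the other 3 arrays.

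ADAMTS9, a protease that cleaves versican, was the 1 counted gene of the 6 versican-cleaving proteases, with values of 3.83, 3.48, 2.75 and 5.16 in the order LacZ, Her2, mutant PIK3CA and both. The other 5 were low on all 4 arrays. ADAMTS9 was highest on the array labelled with both, the only array on which it met the filter. VCAN read 6.04 there, below its values on Her2 (6.73) and mutant PIK3CA (6.28) and above that on LacZ (5.76). These are RNA values, and a link between the genes was not tested.

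**Figure D5:**
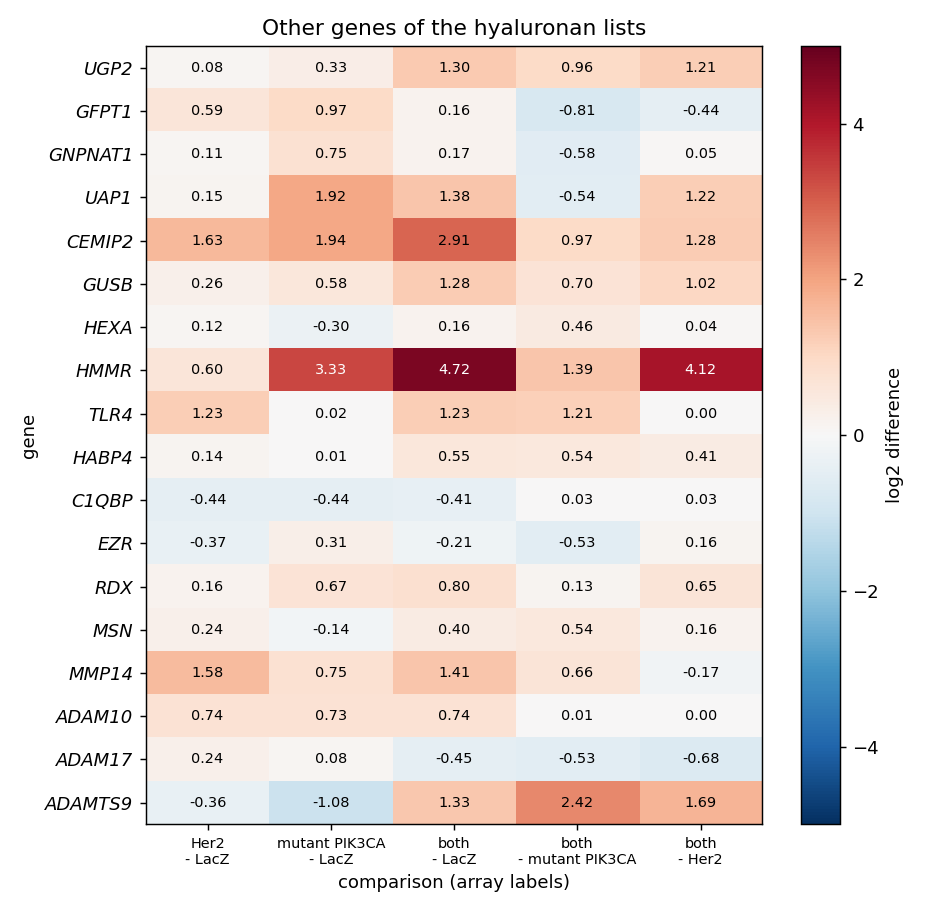
Log2 differences in 5 comparisons of array labels (columns) for the 18 genes of the 8 lists that lie above the upper quartile on at least 2 arrays (rows), with red for higher and blue for lower. HMMR (4.72 for both against LacZ, from a low LacZ value) and CEMIP2 (2.91) have the largest values. For mutant PIK3CA against LacZ, UAP1 differs by 1.92 and HMMR by 3.33. TLR4 differs by 1.23 and 1.21 in the Her2 pairs.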

How the data were processed

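The deposited log2 values per probe set were made by the authors with oligo's RMA, per the submitters' processing notes, a method that corrects background, equalises the arrays and joins probes into 1 value. The sources used here give no versions or filters. The log base was inferred from the method and the range (-0.77 to 12.35). Labelling used an Affymetrix whole-transcript kit, per the labels' protocols.

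Of 53617 probe sets, 23871 had 1 symbol, 1842 several and 27904 none in the platform annotation. Symbols were updated by gene identifier with RefSeq (GRCh38.p14), which altered 90. Small RNAs and genes under log2 5 on all arrays were not counted, ERBB2 and PIK3CA were left out of counts, and 4312 genes stayed. Differences were called at 2-fold, with no test. Named genes were the members, list and marker genes, ERBB2 and the 5 nearest genes of HAS2 and of PTX3. The members and lists were chosen with earlier results of these data known.

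Alternatives were quantile normalization, cyclic loess (limma 3.58.1, 3 iterations), the mean of all probe sets, no filter, a mean filter and 1.5-fold. Differences and counts were tested on simulated data. Python 3.11.15 and pandas 2.3.3 were used.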

Additional observations from a re-analysis of the deposited data

Results flagged for a closer look

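ADAMTS9 was the 1 gene among the members and pathway lists with differences of at least 2-fold in opposite directions for the same label. It differed by -1.08 between mutant PIK3CA and LacZ and by 1.69 between both and Her2. Each value rests on 1 array per group, and the difference between them was not tested.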

How the results depend on the processing

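Of the 49 differences of the 7 members, 0 turned direction after quantile normalization of all probe sets, 3 after cyclic loess and 3 with a gene's probe sets averaged, and none of those that turned had been at least 2-fold. Members called numbered 2 in place of 0 for mutant PIK3CA against LacZ after cyclic loess (HAS3 at -1.17 and TNFAIP6 at -1.23, both low on these arrays). At 1.5-fold they numbered 4 in place of 2 for Her2 against LacZ and 3 in place of 1 for both against Her2. The counted genes called, in the order Her2, mutant PIK3CA and both against LacZ, both against mutant PIK3CA, both against Her2, mutant PIK3CA against Her2 and departure from additivity, numbered 238, 481, 1075, 815, 655, 424 and 799. Without the filter they numbered 739, 949, 2287, 1832, 1473, 1104 and 2124, of more genes (20913). With a mean of at least log2 5 they numbered 132, 288, 645, 452, 348, 226 and 468, of fewer (3366). At 1.5-fold they numbered 960, 1386, 2062, 1642, 1469, 1184 and 1720. The share of higher genes among those called was 53.4% for Her2 against LacZ and 42.9% after cyclic loess. With the mean filter it was 48.2% in place of 55.5% for both against LacZ, 41.6% in place of 53.0% for both against mutant PIK3CA, 44.5% in place of 59.8% for both against Her2 and 39.1% in place of 51.2% for departure from additivity. Low signal limits HAS3 and TNFAIP6 on every array and HAS2 on 2. No paired analysis was possible because each group has 1 array.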
